A study of Mus musculus with 2 samples.

Results

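Cycling Camp-high cells are the neutrophil-lineage cells of these bone marrow cultures that carried granule transcripts while still in the cell cycle. They were selected on measured values: Camp, which encodes the cathelicidin antimicrobial peptide of neutrophil granules, had to make up at least 0.5% of a cell's gene UMIs, and Mki67 and Top2a, which mark cycling cells, had to reach at least 2 UMIs together. A UMI (unique molecular identifier) stands for 1 captured transcript. The rule was applied to barcodes with 1 hashtag of day 3, 4, 5 or 7, at least 500 genes and under 15% mitochondrial UMIs, and 2185 of 21748 such cells met it, 915 of 9961 in the control library and 1270 of 11787 in the heme library. The levels of Camp, Mki67 and Top2a chose the cells and are given below as descriptions only.

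Lineage-depleted bone marrow progenitors of C57BL/6 mice, 8 to 10 weeks old, had been grown with 20 ng/ml GM-CSF, and the albumin-bound form of heme (300 µM), or albumin alone as the control, was given on day 3. Each group was 1 droplet library of the 3′ ends of transcripts, made from a pool of 5 cultures marked with DNA hashtags for days 0, 3, 4, 5 and 7. Cells of 1 library are not replicates, so no test between control and heme was possible. The intervals below are exact 95% binomial or Poisson intervals and cover counting error only. The sources differ on how long the day 5 culture was exposed, so culture days are used throughout, and day 3 cells stand for cultures before the exposure.

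Neutrophils arise in the marrow through a series of stages. Promyelocytes make the primary granules, which hold myeloperoxidase (Mpo), neutrophil elastase (Elane), proteinase 3 (Prtn3) and cathepsin G (Ctsg). Myelocytes, the last stage that divides, switch to secondary granule proteins such as lactoferrin (Ltf), lipocalin 2 (Lcn2), neutrophilic granule protein (Ngp) and Camp under the transcription factor Cebpe, and cells that have left the cycle add tertiary granule enzymes such as Mmp8 and Mmp9 and then the chemokine receptor Cxcr2.

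The 2 libraries held 198754588 and 333481636 gene UMIs over 13961 and 17378 barcodes, control first. The control and heme libraries shared 112 barcode sequences, 1 of them among the cycling Camp-high cells. Of the barcodes that carried several hashtags, and so were not used, 199 in the control and 254 in the heme library also met the Camp and cycling limits, as did 9 and 39 barcodes with no hashtag and 1 and 7 day 0 cells. The hashtag of the assigned day took a median of 74.6% to 86.4% of a cell's hashtag UMIs in 6 of the 7 cultures with at least 20 of these cells. In the heme day 7 culture it took 62.1%, from a median of 321 own-hashtag UMIs against 70 of the next hashtag. Over all kept cells of that culture the median was 87.1%, from 1028.5 own-hashtag UMIs.

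The Camp share of the selected cells had culture medians of 1.54% to 1.75% in the control library on days 3 to 5. The heme medians were 1.43% (day 3), 1.23% (day 4), 0.779% (day 5) and 1.10% (day 7). Just inside the Camp limit, 128 cells had 0.5 to 0.6%, and just outside it 149 otherwise fitting cells had 0.4 to 0.5%. At the cycling limit, 178 cells had exactly 2 UMIs and 487 Camp-high cells had 1 and were not selected. Most cells lay well past this limit, with a median of 14 Mki67 plus Top2a UMIs in a median of 14560 gene UMIs. The culture medians were 12, 12 and 11 such UMIs on days 3, 4 and 5 in the control and 22, 15, 12 and 15 on days 3, 4, 5 and 7 in the heme library. On day 3, before the exposure, the selected heme cells held 1.61 times the control CPM of Mki67 and 1.53 times that of Top2a. The 2 control cells of day 7 are too few for gene levels and were left out of every gene comparison.

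The cells made up similar shares of both libraries in the younger cultures, and the libraries parted on days 5 and 7. The control share was 20.2% on day 3 (421 of 2089 cells, 18.5 to 21.9%), and the heme share was 19.8% (665 of 3351, 18.5 to 21.2%). On day 4 the shares were 16.6% (376 of 2263 cells, 15.1 to 18.2%) in the control and 16.97% (509 of 2999, 15.6 to 18.4%) in the heme culture. The heme minus control difference was -0.308 percentage points (-2.54 to 1.89) on day 3 and 0.357 points (-1.72 to 2.41) on day 4, so differences of this size were within counting error.

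On day 5 the share was 4.46% (116 of 2601 cells, 3.699 to 5.33%) in the control culture. The heme culture of that day held 1.09% (29 of 2665, 0.730 to 1.56%), and the heme minus control difference was -3.37 points (-4.31 to -2.48). On day 7 the order was the other way round: 2 of 3008 control cells, which is 0.0665% (0.00805 to 0.240%), and 67 of 2772 heme cells, which is 2.42% (1.88 to 3.06%), a difference of 2.35 points (1.78 to 3.00). The day of these 67 cells is less certain, with a median own-hashtag share of 62.1% against 87.1% over all kept cells of their culture. Thinning every cell to 5000 UMIs, which left out 77 to 706 shallower cells per culture, gave 4.91% and 1.13% on day 5 and 0.189% and 2.38% on day 7. With the study's upper limit on genes and its limit on ribosomal UMIs, the difference was 5.995 points on day 3, where the heme share was then the higher, and 3.10 points on day 7.

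Among all Camp-high cells, the cycling part was smaller on day 4 than on day 3 and smaller again on day 5 in both libraries. It was 69.8% (66.0 to 73.5%) of control Camp-high cells at day 3, then 40.2% at day 4 and 26.8% at day 5. The heme values were 71.9% (day 3), 40.7% (day 4), 18.6% (day 5) and 56.8% (day 7). The day 7 control value of 16.7% rests on 12 Camp-high cells. Cells with more UMIs reach 2 cycling UMIs more easily, and median UMIs per cell were 6544 in non-cycling and 14030 in cycling Camp-high cells of control day 3. After thinning, the shares were 60.5%, 42.0%, 32.5% and 62.5% in the control, the last being 5 of 8 cells, and 70.1%, 39.3%, 24.0% and 61.2% in the heme cultures, so the day 7 difference changed sign. The thinned heme minus control difference on day 3 was 9.515 points (4.38 to 14.66). Thinning evens out depth but not the library difference in Mki67 and Top2a levels.

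**Figure D1:**
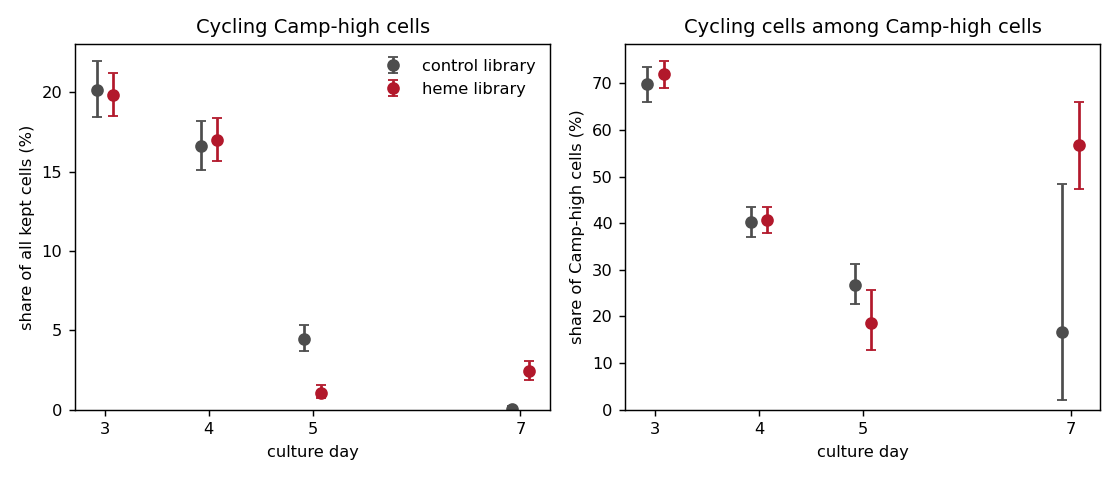
Share of cycling Camp-high cells among all kept cells (left, %) and of cycling cells among Camp-high cells (right, %) by culture day, with exact 95% binomial intervals as bars. The libraries overlap on days 3 and 4, the control library is higher on day 5 (4.46% against 1.09%) and the heme library on day 7 (2.42% against 0.0665%).

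Gene levels are given in CPM, the UMIs of a gene per 1000000 gene UMIs summed over the cells of a class in 1 culture. A gene was compared between 2 cultures where it had at least 20 UMIs in all and 20 CPM in either. It was called higher or lower when its ratio differed 2-fold or more from the median ratio of all compared genes.

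The label of a neutrophil precursor was borne out by the markers that the rule did not use. Ngp, a member of the cathelicidin family, stood at 19596 to 38999 CPM in the 7 cultures, and Cebpe, the regulator of secondary granule genes, at 478 to 784 CPM. Both alarmin genes of neutrophils, S100a8 and S100a9, held 91172 to 138604 and 78162 to 128008 CPM. Marker sums of macrophages and dendritic cells were below those of the cultures as a whole: the 8 macrophage markers held 19.2 to 86.2 CPM and the 8 dendritic cell markers 164 to 290.4 CPM in these cells, against 195 to 1165 and 2694 to 18719 CPM over all kept cells of a culture. The eosinophil list held at most 5.45 CPM, and of the 4 lymphocyte markers 2 to 4 were at 0 in each culture. The 8 monocyte markers held 1498 to 2258 CPM, against 1064 to 2371 CPM over all kept cells, so their sum was not lower. Nearly all of this sum was Ly6c2, which held 1353 to 2055.5 CPM when the cells were grouped by Camp share. None of the other monocyte markers passed 26.8 CPM in any of these groups. The 7 erythroid markers held 587, 780.4 and 677 CPM in control day 4, control day 5 and heme day 4. Over all kept cells of these cultures they held 213, 291 and 259 CPM. In heme day 3 they held 272.5 CPM, against 234.4 CPM over all kept cells.

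The cells stood between a class of earlier cycling cells and a class of non-cycling Camp-high cells. The earlier class had Elane and Prtn3 at 0.5% of UMIs or more, Camp under 0.1% and the same cycling limit (914 cells). The non-cycling class was Camp-high with neither a Mki67 nor a Top2a UMI (1762 cells). Elane stood at 2722 to 8964 CPM in the earlier class, at 134 to 1446 CPM in the cycling Camp-high cells and at 26.7 to 80.0 CPM in the non-cycling cells, and no culture broke this order. Since Elane and Prtn3 chose the earlier class, its levels of them are descriptions. Camp limits also divide the earlier class from the cycling Camp-high cells, so steps of other secondary granule genes between these classes are descriptions too.

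Ltf and Lcn2, of the secondary granules, went the other way. Ltf, which encodes lactoferrin, stood at 52.0 to 222 CPM in the earlier class, at 3786 to 8573 CPM in the cycling Camp-high cells and at 9990 to 19273 CPM in the non-cycling cells. Lcn2, which encodes a siderophore-binding protein, held 766 to 1426, 5531 to 13282 and 10472 to 19459 CPM in the same order. Ngp differed: its range in cycling cells (19596 to 38999 CPM) was not below that in non-cycling cells (13286 to 38636 CPM), and it was 961 to 3162 CPM in the earlier class. Late genes were low in the cycling cells. The gelatinase gene Mmp9 held 7.36 to 128 CPM in them and 293 to 870 CPM in non-cycling cells, and Cxcr2 held 5.87 to 41.0 and 44.6 to 127 CPM.

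**Figure D2:**
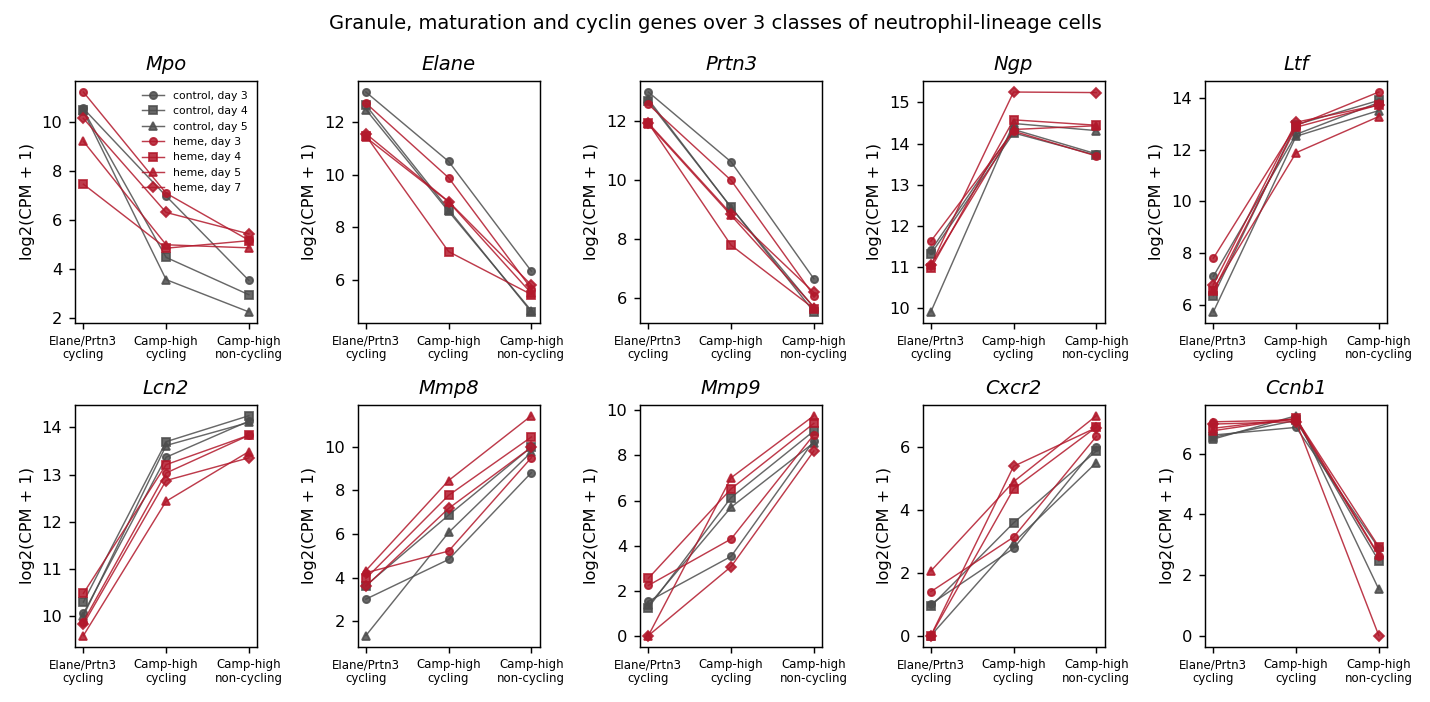
Levels on a log2(CPM + 1) scale of 10 genes in cycling cells chosen by Elane and Prtn3, in cycling Camp-high cells and in non-cycling Camp-high cells; each line is 1 culture, with the library as colour and the day as symbol. Elane and Prtn3 step down over the classes, Ltf, Lcn2, Mmp8, Mmp9 and Cxcr2 step up, and Ngp reaches its non-cycling level in the cycling Camp-high cells.

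Of 4059 genes compared in all 7 cultures, 303 were higher (7.46%) and 86 lower (2.12%) in cycling than in non-cycling Camp-high cells in each of them. The 2 cell cycle lists follow from the choice of classes: 20 of 20 G2/M genes and 13 of 14 compared G1/S genes were higher in every culture. Histone and spindle genes led, chosen by the smallest difference over the cultures: Hist1h1b, a linker histone, held 266 to 419 CPM in cycling and 3.198 to 12.8 CPM in non-cycling cells. Prc1, which bundles the spindle midzone, held 161 to 239 and 1.29 to 8.50 CPM. All 4 compared primary granule genes were also higher in every culture, as were 2 of 4 compared heat shock genes.

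Among the 86 genes that were lower in cycling cells were several of late neutrophils. Among the tertiary granule list 4 of 6 genes were lower in each culture, and among 12 compared mature neutrophil genes 3 were. Of the other lists, 2 of 13 oxidant response genes, 1 of 8 heme and iron genes, 1 of 6 NADPH oxidase genes and 1 of 11 cyclin, kinase and inhibitor genes were lower as well. Mmp8, the neutrophil collagenase, held 27.4 to 349 CPM in cycling cells against 448 to 2741 CPM in non-cycling cells. Retnlg, a secreted resistin-like protein, held 27.2 to 99.03 against 234 to 968 CPM. The chemokine gene Ccl6 held 210 to 1863 against 1392 to 6722 CPM, and the interleukin-1 receptor antagonist gene Il1rn 28.7 to 138 against 140 to 481 CPM. None of 8 secondary granule genes was called in either direction in all 7 cultures.

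Short promoter stretches of the cell cycle and granule genes are shown because 2 motifs were unevenly spread over these lists. The stretches are from RefSeq on GRCm38.p6, run 5′ to 3′ on the gene's strand and lie within the 250 bases before the start; Cdk1 and Lcn2 lie on the minus strand. Capitals mark TTTGAA or its reverse complement TTCAAA, the letters of the cell cycle homology region, in Cdk1 (the mitotic kinase), Kif11 (a spindle motor) and Ube2c (a ubiquitin conjugating enzyme of mitosis), and TTGCNNAA or TTNNGCAA, letters that C/EBP factors can bind, in Ltf, Ngp and Lcn2.
Cdk1, chr10:69352966-69352995: ctgattggctccTTTGAAcgtctacgtgca
Kif11, chr19:37376351-37376380: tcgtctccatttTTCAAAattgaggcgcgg
Ube2c, chr2:164769888-164769917: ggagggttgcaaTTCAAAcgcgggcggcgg
Ltf, chr9:111019206-111019235: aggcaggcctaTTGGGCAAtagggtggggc
Ngp, chr9:110419659-110419688: gtcctggtttaTTGCCCAAacctccttgcc
Lcn2, chr2:32387937-32387966: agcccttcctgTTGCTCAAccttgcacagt

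TTTGAA, searched on both strands over 300 bases, lay in the promoters of 10 of the 17 G2/M genes with an entry and 2 of 17 G1/S genes, and in 20.2% of all 27025 genes. CCAAT lay in 14 of the 17 G2/M genes and in 41.1% of all genes. TTGCNNAA lay in 4 of 7 secondary granule genes, in 3 of 5 tertiary granule genes, in 1 of 5 primary granule genes, in none of the 17 G2/M genes, and in 12.2% of all genes. No motif contains another. These are matches of letters and say nothing of binding.

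The cycling Camp-high cells were not uniform in their granule transcripts. In bins of the Camp share, Elane held 1568 CPM in control cells with 0.5 to 1% Camp (199 cells), 1064 CPM from 1 to 2% (338 cells), 356 CPM from 2 to 4% (342 cells) and 105 CPM from 4% (36 cells). The heme bins, of 415, 520, 316 and 19 cells, held 944, 562, 203 and 24.2 CPM. Ltf ran opposite, from 4767 to 11181 CPM over the control bins and from 5497 to 12296 CPM over the heme bins. These bins used Camp, so they describe an order inside the class and no test was made.

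Within each of the 7 cultures the Camp share of a cell and its share of primary granule UMIs had a Spearman correlation of -0.39 to -0.07 over cells. The Camp share and the share of the other secondary granule UMIs had one of 0.19 to 0.44. The DNA replication genes of the G1/S list were negatively related to Camp, at -0.36 to -0.18, and those of the G2/M list ranged from -0.03 to 0.25. The shares of a cell have its total UMIs in common, and the Camp share itself had correlations of -0.17 to -0.08 with that total. In the control bins Rrm2, a subunit of the enzyme that makes deoxynucleotides, went from 246 to 132 CPM while Ube2c went from 486 to 942 CPM.

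Cyclin genes differed in how much they varied over the cultures. The B-type cyclin gene Ccnb1 stood at 116, 136 and 152 CPM in the control cultures of days 3, 4 and 5 and at 138, 143, 142 and 132 CPM in the heme cultures of days 3, 4, 5 and 7. The D-type cyclin gene Ccnd3, used by granulocytes, stood at 449 to 465 CPM in the control and 412 to 495 CPM in the heme cultures. Ccne2, an E-type cyclin gene of the start of DNA replication, varied more, with 29.0 CPM at control day 3, 15.7 at day 4 and 9.53 at day 5, against 28.9 to 41.0 CPM in the heme cultures. It was called lower in control day 5 than in day 3. Cdk6, a G1 kinase, was at 47.2, 31.7 and 29.96 CPM in the control cultures and at 79.1, 79.5, 88.7 and 63.1 CPM in the heme cultures, so the heme library was already higher on day 3. The inhibitor gene Cdkn1a held 57.1, 99.9 and 142 CPM in the control cultures and 96.1, 171, 169 and 125 CPM in the heme cultures.

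Between day 3 and day 5, Mpo, Elane and Prtn3 were lower and a group of stefin and chemokine genes was higher in both libraries. Between day 3 and day 4, 86 of 4596 genes (1.87%) were higher on day 4 and 15 (0.326%) lower in the control library, and 143 of 5457 (2.62%) and 15 (0.275%) in the heme library. Between day 3 and day 5 the counts were 147 of 4734 (3.11%) and 53 (1.12%) in the control (122 and 83 with TMM factors) and 225 of 5787 (3.89%) and 143 (2.47%) in the heme library. Between day 3 and day 7, 154 of 5563 genes were higher (2.77%) and 59 lower (1.06%) in the heme library. Each day was a separate culture, and its age and its handling cannot be told apart.

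Of 6 primary granule genes, 3 were called lower in the control and 4 in the heme library on day 4. Against day 3, 4 were lower in control day 5, 3 in heme day 5 and 1 in heme day 7, and none was called higher. Ctsg and Ms4a3 held 45.0 and 526 CPM in heme day 3 and 55.7 and 555 CPM in heme day 5. Elane stood at 1446, 408 and 388 CPM on days 3, 4 and 5 in the control. This RNA was concentrated in few cells: in control day 4 the third quartile was 1 UMI and the highest cell had 347 of the 2253 Elane UMIs. In the heme library Elane stood at 941, 134, 499 and 503 CPM on days 3, 4, 5 and 7, so its lowest value was on day 4. Prtn3 followed the same course, with 1580, 543 and 539 CPM in the control and 1024, 222, 448 and 465 CPM in the heme cultures. Mpo held 126, 21.4 and 10.9 CPM in the control and 137, 28.0, 31.0 and 78.8 CPM in the heme cultures.

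In both libraries at once, 49 of 4645 genes were higher on day 5 than on day 3 (1.05%) and 8 lower (0.172%). The named genes are the 10 with the largest smaller difference of at least 2-fold and 100 CPM. The stefin family, inhibitors of cysteine proteases, gave 5 of them: Stfa3, Cstdc5, Stfa2, Cstdc4 and Stfa2l1. Cstdc5 held 58.2, 1052 and 5857 CPM on days 3, 4 and 5 in the control and 21.5, 410.1, 1789 and 548 CPM on days 3, 4, 5 and 7 in the heme library. This RNA was concentrated in few cells, since in control day 4 the third quartile was 0 and the highest cell had 730 UMIs of Cstdc5. The near-identical stefin copies lie close together, and how reads were divided among them is uncertain.

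Chemokine genes were also among the 10. Ccl6, made by neutrophils and macrophages, held 210, 584 and 804 CPM in the control and 334, 1077, 1863 and 1267 CPM in the heme cultures. Ccl3, which encodes an inflammatory chemokine, held 25.8, 76.0 and 167 CPM in the control and 44.2, 220.1, 235 and 108 CPM in the heme cultures. Thbs1, which encodes the matrix protein thrombospondin 1, held 143, 609 and 757 CPM in the control and 277, 562, 943 and 1069 CPM in the heme cultures. Il1rn and the interferon-inducible Ifi27l2a complete the group. On the lower side the 4 genes that passed were Mpo, Prtn3, Elane and Srgn, which encodes the proteoglycan that packs proteins into granules and held 249 and 88.5 CPM on days 3 and 5 in the control and 171 and 68.1 CPM in the heme library.

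**Figure D3:**
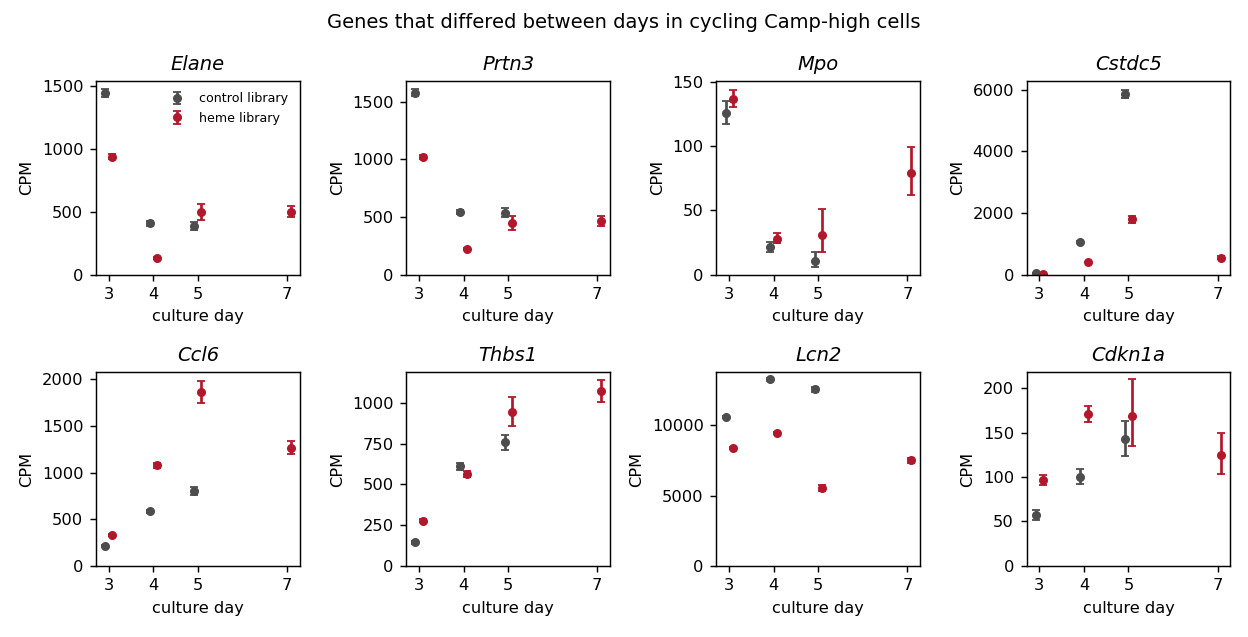
Levels (CPM, linear axes from 0) of 8 genes in cycling Camp-high cells by culture day, with exact 95% Poisson intervals as bars. Elane, Prtn3 and Mpo are highest on day 3 in both libraries, and Cstdc5, Ccl6 and Thbs1 are higher on days 4 and 5 than on day 3.

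Between the heme and control libraries, several genes of heme breakdown, iron storage and oxidant defence were higher in the heme cultures after day 3, and the transferrin receptor gene was lower. The libraries already differed on day 3, before the exposure: 54 of 5240 genes (1.03%) were higher and 38 (0.725%) lower in the heme library. On day 4, 97 of 5342 genes (1.82%) were higher and 103 (1.93%) lower, and on day 5, 342 of 5614 (6.09%) and 323 (5.75%). The heme day 5 sum had only 484720 UMIs from 29 cells, and where at least 100 UMIs were asked for, 68 and 78 genes were called. The median log2 ratio of all genes, to which calls are relative, was 0.36 on day 3, 0.41 on day 4 and 0.48 on day 5. Other scalings moved the balance toward lower genes: with TMM factors 43 genes were higher and 78 lower on day 3 and 79 and 126 on day 4, and with DESeq2 size factors 43 and 67 on day 3 and 72 and 146 on day 4.

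Hmox1 (chr8:75093621-75100589 on GRCm38), which encodes heme oxygenase 1, the enzyme that opens the heme ring, stood at 17.4, 17.7 and 23.8 CPM on days 3, 4 and 5 in the control. In the heme library it stood at 124 CPM on day 3 and at 439, 427 and 399.5 CPM on days 4, 5 and 7. The day 4 level was 24.8 times that of the control (20.2 to 30.6) and the day 5 level 17.9 times (12.5 to 26.4). Day 0 cells, which had met no heme, held 1.84 CPM of Hmox1 in the control pool against 124 CPM in the heme pool, so the libraries already differed in cells from before the exposure. The cause was not tested. All kept heme cells of day 4 held 1945 CPM and the non-cycling Camp-high cells 889 CPM.

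Iron storage and iron uptake genes differed in opposite directions. The ferritin genes Fth1 (chr19:9980598-9985098) and Ftl1 encode the 2 subunits of the iron-storing shell, and Tfrc (chr16:32608920-32632794) encodes the receptor that takes up iron-loaded transferrin. Their transcripts carry iron-responsive elements, hairpins bound by iron regulatory proteins, which in iron-poor cells hold back translation from the 5′ UTR of the ferritins and protect the Tfrc transcript through its 3′ UTR. The 30 bases around such a loop are shown from GENCODE M21 transcripts, 5′ to 3′ on the gene's strand, with the 6 loop bases in capitals. They are shown because ferritin and Tfrc differed in opposite directions; Ftl1 and Slc40a1 lie on the minus strand.
Fth1, 5′ UTR, chr19:9982735-9982764: ctgcttcaaCAGTGCttgaacggaacccgg
Ftl1, 5′ UTR, chr7:45459775-45459804: ttgcttcaaCAGTGTttgaacggaacagac
Slc40a1, 5′ UTR, chr1:45925461-45925490: cttcagctaCAGTGTtagctaagtttggaa
Tfrc, 3′ UTR, chr16:32631222-32631251: tatcggaagCAGTGCcttccataattatga
Tfrc, 3′ UTR, chr16:32631601-32631630: tatcgggagCAGTGTcttccataatgcata
Tfrc, 3′ UTR, chr16:32631666-32631695: tatcggagaCAGTGAtctccatatgttaca
Tfrc, 3′ UTR, chr16:32631713-32631742: tatcgggaaCAGTGTttcccataattttct

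The pattern searched was CNNNNNCAGTGN on the transcript strand, with at least 4 of the 5 bases on each side of the loop able to pair. It lay in a UTR of 4.91% of 21877 protein-coding genes, in the 5′ UTR of 205 and in the 3′ UTR of 872, and in 6 of the 13 genes of the heme and iron list. A match is not a working element.

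Fth1 stood at 1085, 1194 and 1553 CPM on days 3, 4 and 5 in the control, and at 1766, 7490.4, 6709 and 5385 CPM on days 3, 4, 5 and 7 in the heme library. The day 4 ratio was 6.28 (6.12 to 6.44), against 1.63 on day 3. Ftl1 stood at 3995, 4582 and 4749 CPM in the control and 2778, 7932, 8403 and 9790.4 CPM in the heme cultures, lower than the control on day 3 and higher after it. Its day 4 ratio of 1.73 (1.71 to 1.76) is 0.38 on the log2 scale relative to the median gene and was not a call. Tfrc stood at 110, 93.0 and 119 CPM in the control and at 179, 31.5, 47.4 and 34.7 CPM in the heme cultures. On day 3 the heme level was 1.64 times the control level, and it was then 0.339 times the control on day 4 (0.2903 to 0.395) and 0.398 times on day 5 (0.246 to 0.617).

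Other genes of the heme and iron list also differed. Slc48a1, which encodes a heme transporter of the lysosome membrane, held 39.0, 28.8 and 33.4 CPM in the control and 52.7, 146, 167 and 121 CPM in the heme cultures, a ratio of 5.07 (4.29 to 6.03) on day 4. Blvrb, a biliverdin reductase, was called on day 4 only, with 96.2 CPM in the heme against 30.4 CPM in the control culture. Slc40a1, the iron exporter ferroportin, held 123 CPM in the heme against 64.4 CPM in the control culture on day 4. It was already 1.84 times as high in the heme library on day 3. Of 9 compared genes of this list 4 were called higher on day 4 (against 1.82% of all genes) and 3 of 9 on day 5, Tfrc was the single gene called lower on both, and Hmox1 was the single call on day 3. Alas1, which encodes the first enzyme of heme synthesis and was not on the list, held 215, 225 and 221 CPM in the control and 198, 118, 122 and 106 CPM in the heme cultures, a day 4 ratio of 0.526 (0.483 to 0.573).

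Genes of the oxidant response, which the factor NRF2 is known to drive, formed the second group. Of 16 compared genes of this list, 7 were called higher on day 4 (1.82% of all genes) and 5 on day 5 (6.09% of all genes), and none lower; of 13 compared on day 3, none was called. Gclm, a subunit of the enzyme that starts glutathione synthesis, held 141, 122 and 88.5 CPM in the control and 154, 643, 656 and 428 CPM in the heme cultures. Slc7a11, which imports cystine, held 15.7, 33.5 and 29.96 CPM in the control and 34.8, 399.6, 256 and 166 CPM in the heme cultures. The day 4 ratio was 5.26 (4.86 to 5.71) for Gclm and 11.9 (10.3 to 13.9) for Slc7a11.

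Prdx1, a peroxidase that uses thioredoxin, held 134 CPM in the control against 435 CPM in the heme culture on day 4. Srxn1, which repairs it, held 5.07 against 36.7 CPM, control first. Catalase (Cat) held 26.8 against 121 CPM and Txnrd1, thioredoxin reductase, 46.7 against 131 CPM, again control first. The detoxifying enzyme gene Mgst1 was lower in the heme culture, with 384 CPM in the control against 277 CPM. This was no call, at -0.88 on the log2 scale relative to the median. Gpx1, a glutathione peroxidase that was not on the list, was lower after day 3: 1200.2, 1287 and 1154 CPM in the control and 1217, 485, 493 and 337.5 CPM in the heme cultures. Its day 3 ratio was 1.01 (0.986 to 1.04) and its day 4 ratio 0.377 (0.362 to 0.392). Sod1, a superoxide dismutase also outside the list, held 47.2 against 198 CPM on day 4 and 40.1 against 89.7 CPM on day 3, control first.

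The letters TGACNNNGC, the core of the antioxidant response element, or their reverse complement GCNNNGTCA lay in the promoters of 8 of 16 oxidant response genes with an entry and in 13.99% of all genes. Capitals mark them in 3 genes called higher on day 4 and in Mgst1, which was not.
Gclm, chr3:122245413-122245442: gctcccgggcGCACCGTCAactctcacgag
Prdx1, chr4:116685456-116685485: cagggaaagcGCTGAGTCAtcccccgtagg
Txnrd1, chr10:82859104-82859133: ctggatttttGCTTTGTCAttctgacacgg
Mgst1, chr6:138140461-138140490: gcggggcttgGCACGGTCAggaggcggggt

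**Figure D4:**
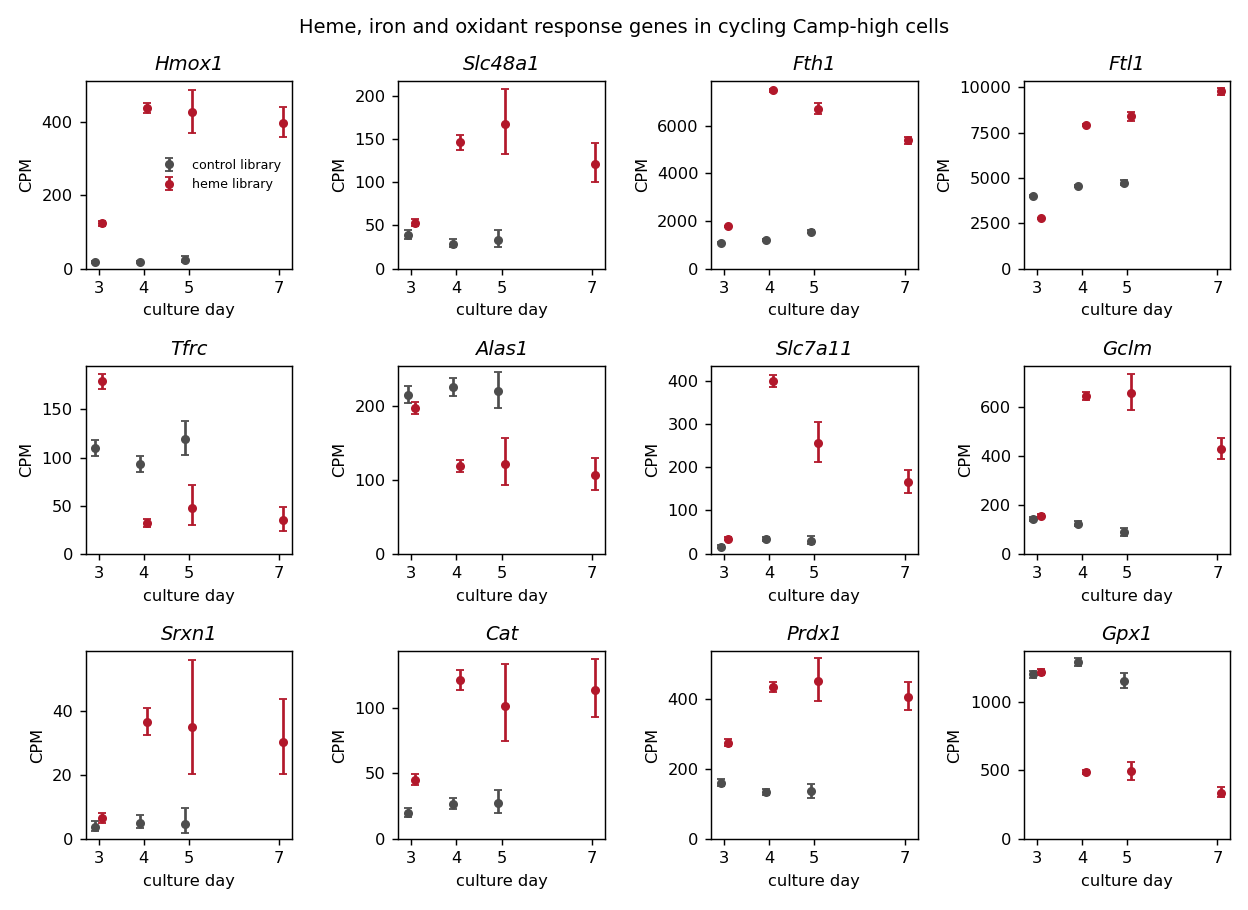
Levels (CPM, linear axes from 0) of 12 heme, iron and oxidant response genes in cycling Camp-high cells by culture day, with exact 95% Poisson intervals as bars. Hmox1, Fth1, Slc7a11 and Gclm are higher in the heme library on days 4 and 5, and Tfrc, Alas1 and Gpx1 are lower. Hmox1, Slc7a11 and Fth1 are already higher on day 3, before the exposure, at 7.1, 2.2 and 1.6 times the control. The control library has no day 7 value.

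By the rule for named genes, a gene had to be 2-fold or more away from the median in 1 direction on both days, with 100 CPM in a culture and an interval that left out 1. In all 43 of 5137 genes (0.837%) were 2-fold or more higher on both days and 59 (1.15%) lower, and 18 and 34 passed the rule. The higher ones, in order, were Hmox1, Slc7a11, Clec4n, Gclm, Mmp12, Wfdc17, Lpl, Slc48a1, Lars2, Fth1, Sod1 and Cat. The lower ones were Stfa1, Stfa2, Cstdc5, Gpx1, Ubb, Stfa2l1, Alas1, Lrg1, Cdkn3, Magoh, Spc24 and Rnaseh2c.

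Several of these already differed on day 3. In the pairs that follow the control is given first. Mmp12, a macrophage elastase gene, held 26.5 against 134 CPM on day 3 and 29.1 against 153 CPM on day 4. Lars2, a mitochondrial synthetase gene, held 20.45 against 91.6 CPM on day 3 and 23.5 against 109 CPM on day 4. Ubb, a ubiquitin gene, held 1540.4 against 741 CPM on day 3 and 1508 against 605 CPM on day 4, and Stfa2 26.8 against 6.61 CPM on day 3. Clec4n held 21.1 against 99.9 CPM on day 3, Wfdc17 15.7 against 72.8 CPM and Stfa1 60.4 against 14.1 CPM. These differences were present before the exposure. Less the day 3 log2 ratio, Hmox1 kept 1.75 and Slc7a11 2.38 on day 4, Gclm 2.22, Fth1 1.89 and Slc48a1 1.85. Tfrc kept -2.32, Gpx1 -1.48 and Alas1 -0.86. Clec4n kept 0.797, Stfa1 -0.451, Wfdc17 0.004, Mmp12 0.0037 and Lars2 -0.01.

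The same genes were compared in non-cycling Camp-high cells of the same cultures. On day 4 the ratio of heme to control for Gclm was 4.899 (4.35 to 5.53) in these and 5.26 in the cycling cells, and for Gpx1 0.456 (0.431 to 0.482) against 0.377. For Fth1 it was 3.53 (3.47 to 3.59) in non-cycling against 6.28 in cycling cells. The control levels of Fth1 were 5152 and 1194 CPM and the heme levels 18162 and 7490 CPM, non-cycling cells first. For Slc7a11 it was 6.56 (5.92 to 7.28) against 11.9. Whether the ratios of the classes differ beyond libraries could not be tested with 1 library a group.

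Granule genes differed between the libraries as well. On day 4, 4 of 6 primary granule genes were called lower in the heme culture (1.93% of all genes), with Elane at 0.329 (0.306 to 0.354) and Prtn3 at 0.408 times the control, and on day 3 1 of 6 was called lower, with Elane at 0.651 and Prtn3 at 0.648 times the control. The day 4 ratios are of summed UMIs, to which few cells gave much. At least 1 Elane UMI was found in 43.1% of control and 51.3% of heme cells of day 4, and a Prtn3 UMI in 62.5% and 63.3%. On day 5 no primary granule gene was called lower and 1 of 6 was called higher, Mpo with a ratio of 2.84 (1.31 to 6.13). That call rests on 15 Mpo UMIs in the heme and 16 in the control culture. In non-cycling Camp-high cells of day 4 the ratio was 1.601 (1.22 to 2.11) for Elane and 1.08 (0.867 to 1.36) for Prtn3, so the lower level of cycling cells was not seen there. In bins of equal Camp share over days 4 and 5, Elane was at 0.285, 0.336 and 0.382 times the control from the lowest bin to the third.

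On day 5, 5 of 8 secondary granule genes were called lower in the heme culture, against 5.75% of all genes, in 29 cells whose median Camp share was also lower. Lcn2 held 10571, 13282 and 12558 CPM on days 3, 4 and 5 in the control and 8385, 9476, 5531 and 7504 CPM on days 3, 4, 5 and 7 in the heme cultures. Chil3, which encodes a chitinase-like protein, held 5465, 8965 and 10145 CPM in the control and 5069, 5855, 4275 and 2582 CPM in the heme cultures. Ngp held 20764, 19596 and 22961 CPM in the control and 20156, 24412, 20752 and 38999 CPM in the heme cultures. Its heme value was the higher on day 4 and the lower on day 5, and day 7 has no control level. Its day 7 value stood apart from the other 6 cultures, and the non-cycling cells of that culture held 38636 CPM.

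**Figure D5:**
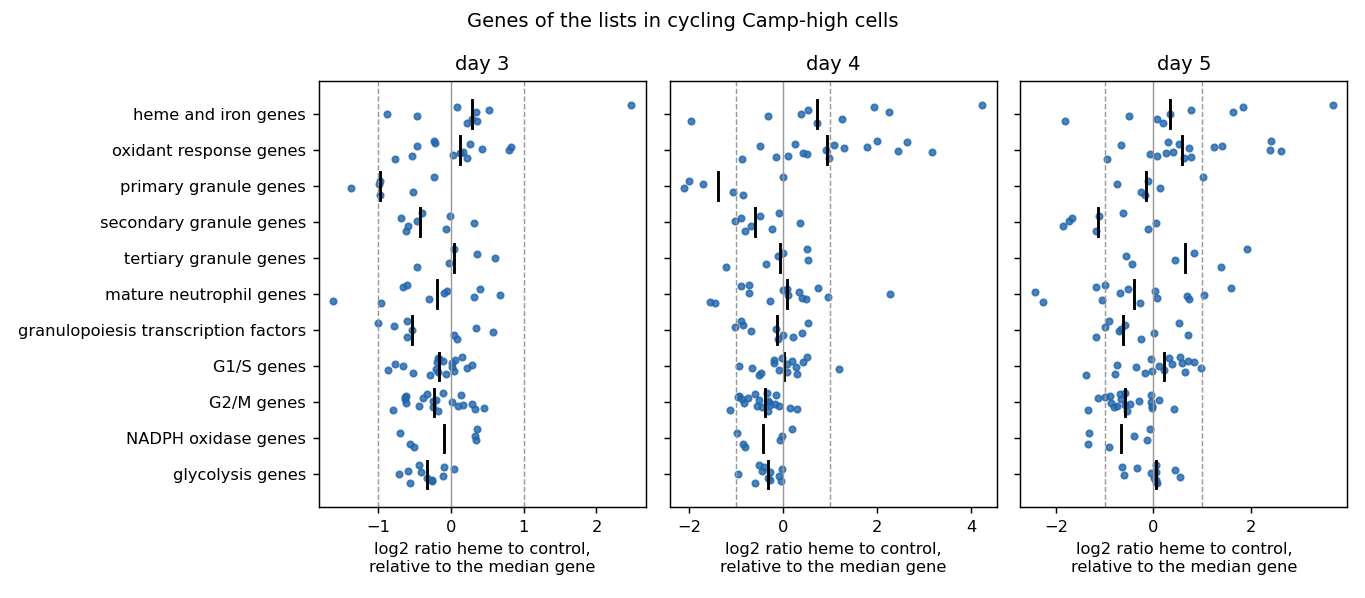
Log2 ratio of heme to control relative to the median gene on days 3, 4 and 5; each point is 1 compared gene of a list, the black bar is the list's median dashed lines mark 2-fold, and the panels differ in axis range. Heme and iron and oxidant response genes reach furthest to the right on days 4 and 5, and secondary granule genes lie to the left on day 5, with a median of -1.15.

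More of all genes were called on day 5 than on day 4, and several but not all of the other lists held more calls on day 5. Of 20 G2/M genes none was called higher on any of the days, 1 was called lower on day 4 (1.93% of all genes) and 3 on day 5 (5.75% of all genes), with a list median of -0.58 on the log2 scale relative to the median gene on day 5. Of the G1/S list 1 of 16 was higher on day 4 (Cdt1, which licenses replication origins, 37.9 against 12.5 CPM, heme first). On day 5, 1 of 17 was lower. Of 6 NADPH oxidase genes 2 were lower on day 5, with a list median of -0.66, and none was called in the earlier cultures. On day 5, 2 of 6 tertiary granule genes were higher (6.09% of all genes), with a list median of 0.64, and of 14 mature neutrophil genes 2 were higher and 4 lower. None of 11 glycolysis genes was called on day 4 and none of 12 on day 5. None of the 5 compared heat shock genes was called on day 4, and 2 of 6 were higher on day 5. These were Hspd1, a mitochondrial chaperonin gene, with 144 against 47.7 CPM, and Hsph1, with 24.8 against 6.81 CPM, heme first. The interferon-stimulated list had 4 of 12 genes at comparable levels on day 4 and no call. Of the integrated stress response list only Atf4 and Asns could be compared on day 4. Asns, asparagine synthetase, was lower with 32.8 CPM in the heme against 57.4 CPM in the control culture. None of the 3 genes of this list compared on day 5 was called. Cebpe held 784, 677 and 676 CPM in the control and 663, 478, 499 and 639 CPM in the heme cultures, with no call.

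RNA of other cell types moved with the libraries in places. The summed macrophage markers held 19.2, 24.2 and 34.7 CPM in the control cultures of days 3, 4 and 5. The heme cultures of these days held 43.0, 74.8 and 82.5 CPM. On day 4, Marco and Mertk were at 0 in the control culture, and C1qa and C1qc were at 0 in the heme culture. Marco was found in 6.48% of the heme cells of day 4. The 2 macrophage markers compared on day 4 were both called higher in the heme culture. Without cells in which macrophage and dendritic cell markers reached 0.05% of UMIs, 83 genes were higher and 100 lower on day 4. Hemoglobin RNA came from few cells: 17 of the 2183 cells of the 7 cultures held over 20 UMIs of the beta-globin gene Hbb-bs. They carried 1715 of its 1818 UMIs in control day 4 and 2783 of 2994 in heme day 4, and without them the level was 17.03 to 30.95 CPM in every culture. The 4 compared hemoglobin and other erythroid genes were called on days 3 and 5 in opposite directions, and their part in other results was not tested.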

How the data were processed

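Gene counts of single cells were analysed from 2 droplet libraries of GM-CSF cultures. The authors deposited unnormalised UMI counts for each gene and barcode, which come from Cell Ranger (4.0.0 in the submitters' processing notes, 5.0.0 in the matrix headers) on GRCm38.p6, and the authors' hashtag calls come from Seurat's HTODemux (3.2.3 in the notes). Doublets were removed only through hashtag calls, so doublets within a culture remain. Each matrix lists 26124 genes.

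UMI counts were summed over the selected cells of each culture, and cultures with at least 20 such cells were compared (Python 3.11.15, numpy 2.4.6, scipy 1.17.1, pandas 2.3.3). With 1 library per group no p-value was computed. Intervals are Clopper-Pearson for shares and exact conditional Poisson for ratios, at 95%. Named genes were the 12 in each direction with the largest smaller difference on days 4 and 5, or the 10 for day 5 against day 3 and for non-cycling cells. The ratio step was tested on simulated data. TMM factors (edgeR 4.0.16) and DESeq2 1.42.0 size factors in R 4.3.3 were alternatives, with other limits, thinning and filters; 3 further alternatives were chosen after seeing the data. The cells and gene lists were chosen with earlier results of these data known. Of names with 2 identifiers the row with most UMIs was used. RefSeq promoters and GENCODE M21 transcripts, both on GRCm38, gave the sequences.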

Additional observations from a re-analysis of the deposited data

Results flagged for a closer look

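The share of cycling Camp-high cells differed between the libraries in opposite directions on the last days. The heme minus control difference was -3.372 percentage points on day 5 and 2.351 points on day 7. Each rests on 1 culture per library, and the difference was not tested against the spread between cultures. The 67 heme cells of day 7 had a median own-hashtag share of 62.1%, against 87.1% over all kept cells of that culture.

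Cells that met the Camp and cycling limits were also present among barcodes outside the comparisons. In the control library 199 such cells carried several hashtags and 9 carried none, and in the heme library 254 carried several and 39 none. Their culture day is unknown, and they were not compared.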

How the results depend on the processing

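With 1 library per group no replicate could be left out and no spread between replicates is known. No paired analysis was possible because the labels give 1 sample per group. Of 48 named gene differences on days 4 and 5, 42 kept their sign under every alternative run and 13 stayed beyond 2-fold, among them Hmox1, Slc7a11, Gclm, Gpx1 and Slc48a1 on both days. The cause of the following shifts was not tested.

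The member share difference, heme minus control, became 5.995 points on day 3 and 3.103 on day 7 with the study's gene and ribosomal limits, 1.937 on day 3 after thinning, and -2.287 on day 4 and 1.446 on day 7 with Camp at 1%. The difference in the cycling share of Camp-high cells became 6.908 points on day 3 with 4 cycling UMIs, 9.515 on day 3 and -1.276 on day 7 after thinning, and 4.95 on day 4 and 1.614 on day 5 with 1 cycling UMI. The day 5 and day 7 values of this share thus changed sign.

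Without a minimum of UMIs, day 3 had 2430 higher and 1366 lower genes, day 4 had 2399 and 1430, and day 5 had 2137 and 2087. Of lower genes on day 3 there were 78 with TMM factors, 67 with DESeq2 size factors and 84 with the study's limits. On day 5, 68 genes were higher and 78 lower with at least 100 UMIs, and 492 were lower with Camp at 1%. From day 3 to day 5 in the control library, 83 genes were lower with TMM factors. Less the day 3 log2 ratio, which was an alternative chosen after seeing the data, 6 values changed sign: Lars2 became -0.007088 on day 4 and -0.05422 on day 5, Cstdc5 0.02085 and Stfa2l1 0.04956 on day 4, and Mmp12 -0.0647 and Stfa2 0.2321 on day 5.

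The heme day 5 culture, with 29 cells, limits every day 5 value, and day 7 has no control level.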
